A study of Mus musculus with 6 samples.

Results

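The protein kinase C (PKC) and protein kinase D (PKD) isoforms were examined here in mouse embryonic fibroblasts (MEFs), connective tissue cells grown from mouse embryos. The 10 genes were fixed by name and found in the table of normalized counts by their Ensembl identifiers, 10 of the 56953 genes that it lists. They are the conventional isoforms Prkca and Prkcb, the calcium-independent isoforms Prkcd, Prkce, Prkch and Prkcq (class nPKC), the atypical isoform Prkci, and the PKD genes Prkd1, Prkd2 and Prkd3. RNA sequencing was done on bulk RNA of cells in serum-containing medium, giving 6 libraries, 3 labelled WT and 3 labelled GαqKO, for which the study names 3 biological replicates per genotype. The cells labelled GαqKO are described in the study's methods as Gαq/11 knockout MEFs, and both they and the WT cells came from the same outside laboratory. Strain, embryonic age, number of clones and passage are not given in the sources used here. An effect of the genotype and any other difference between the cultures cannot be told apart in this design. A normalized count is a read count scaled by the size factor of its library, and the libraries summed to between 11392429 and 11483486 normalized counts.

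PKC enzymes are serine and threonine kinases that carry the signal of Gq-coupled receptors onwards. Active Gαq switches on phospholipase Cβ, which splits a membrane lipid into inositol trisphosphate, a releaser of stored calcium, and diacylglycerol, which stays in the membrane. Conventional isoforms need both calcium and diacylglycerol, nPKC isoforms need diacylglycerol alone, and atypical isoforms need neither and are held by partner proteins. PKD enzymes bind diacylglycerol and are switched on through phosphorylation by nPKC isoforms. In fibroblasts these kinases are known for their roles in adhesion, migration, secretion and growth control.

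The labels were first checked against the targeted genes. Gna11, the gene of Gα11, had 2140.6, 2179.9 and 2123.2 normalized counts in the WT libraries and 472.3, 463.7 and 418.9 in those labelled GαqKO, whereas Gnaq, the gene of Gαq, had 1665.5, 1660.2 and 1746.6 against 1959.7, 1930.9 and 1888.2. The Gnaq transcript was thus not lower, counts over whole genes do not show whether a transcript is intact, and every direction below is drawn from the labels. Of 7 fibroblast markers, Col1a1, Col1a2, Vim and Pdgfrb were abundant in both groups, but Pdgfra (19.6 ± 2.2 against 2319.7 ± 42.0 normalized counts), Dcn (32.1 ± 3.0 against 1662.8 ± 53.8) and Thy1 (0.7 ± 1.2 against 64.9 ± 10.1) were far lower in WT (mean ± SD of 3 libraries). Col1a1 (16671.0 ± 1167.8 against 5774.5 ± 272.1), Col1a2 (13451.2 ± 374.4 against 10455.0 ± 182.4) and Vim (41784.9 ± 2519.3 against 33507.6 ± 729.0) were higher in WT. Pdgfrb was lower in WT (892.2 ± 56.4 against 1046.4 ± 42.0), and none of these overlapped. The 7 markers summed to between 70336 and 76343 normalized counts in WT and between 53538 and 55835 in the libraries labelled GαqKO. Sums over the epithelial list ran from 255.5 to 283.6 in WT, mostly from Cdh1, and from 9.0 to 20.9 in the other group, and sums over the neural list ran from 385.8 to 447.9 and from 58.3 to 86.7, mostly from Tubb3. The part of these differences in the results below was not tested. In bulk RNA, fewer cells of a type and less RNA per cell cannot be told apart.

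Between genes, levels were compared per kilobase of merged exons. Prkci, whose product PKCι acts in cell polarity, was the most abundant isoform in each group, with 244.2 ± 2.3 normalized counts per kilobase in WT and 297.5 ± 15.0 in the libraries labelled GαqKO (mean ± SD of 3 libraries). In WT it was followed by Prkca and Prkd3, whose ranges overlapped at 162.6 ± 12.7 and 161.8 ± 10.7 normalized counts per kilobase. In the libraries labelled GαqKO, Prkd3 (141.5 ± 5.2) lay above Prkca (100.2 ± 3.6) with no overlap. Then came, in WT, Prkcd (56.5 ± 1.7), Prkd1 (45.8 ± 5.8), Prkd2 (37.0 ± 1.5) and Prkce (24.9 ± 3.2), each with a range apart from that of its neighbours. In the libraries labelled GαqKO, Prkd1 (65.5 ± 5.3) stood above Prkcd (39.5 ± 3.2), whereas the ranges of Prkcd and Prkd2 (31.6 ± 7.9) overlapped, as did those of Prkd2 and Prkce (30.8 ± 3.5). Prkcb, Prkch and Prkcq had group means of 1.1 normalized counts per kilobase or less in both groups. The 7 other isoforms therefore supplied nearly all of the RNA of the family, and the WT level of Prkci exceeded that of 84.3% of the genes tested. These lengths take in all annotated exons, used or not.

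**Figure D1:**
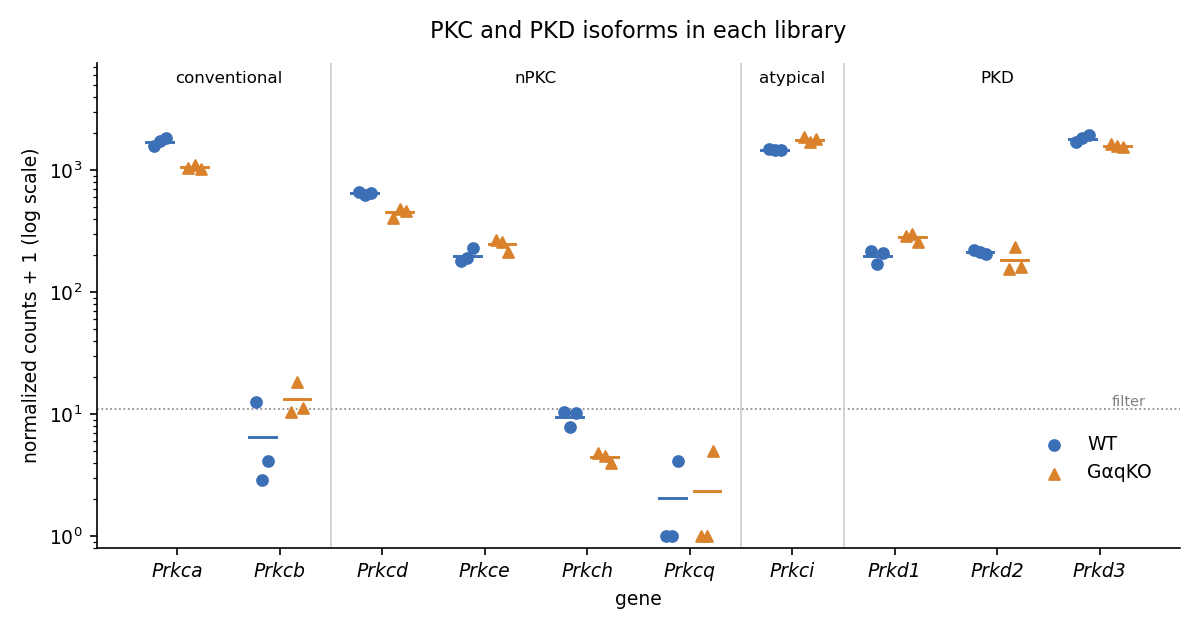
Normalized counts plus 1 (log axis) of the 10 isoforms in each library, by class, with circles for the 3 WT libraries, triangles for the 3 libraries labelled GαqKO, short lines for group means and a dotted line at the filter of 10 normalized counts. Prkca, Prkcd and Prkd3 were lower and Prkci and Prkd1 higher in each library labelled GαqKO, and Prkcb, Prkch and Prkcq lay near or below the filter.

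For the comparison of the groups, limma was fitted to log2(normalized count + 1), and the log2 fold changes (log2FC) below, with their standard errors (SE), are on this scale. The fit took in the 14096 genes that reached 10 normalized counts in 3 libraries or more. Of the 10 isoforms 8 passed that filter. At an adjusted p under 0.05, the libraries labelled GαqKO had more of 3 of the 8 (Prkce, Prkci and Prkd1) and less of 3 (Prkca, Prkcd and Prkd3), and Prkcb and Prkd2 did not pass. Over all genes tested, 31.8% were called higher and 34.1% lower (65.8% in all), so the share of isoforms called was near the background. At a log2FC beyond 1 or -1 as well, 0 of the 8 were called, against 20.7% of all genes tested. The count of 0 holds for edgeR and DESeq2 too, and 7 of the 8 had an unadjusted p under 0.05 in limma. The median log2FC was 0.05 over the 8 isoforms and -0.01 over all genes tested, with median sizes of 0.41 and 0.39. The conventional class held fitted changes of opposite signs, but that of Prkcb was not called. The nPKC class and PKD each held called isoforms of opposite signs, though the groups overlapped for Prkce.

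**Figure D2:**
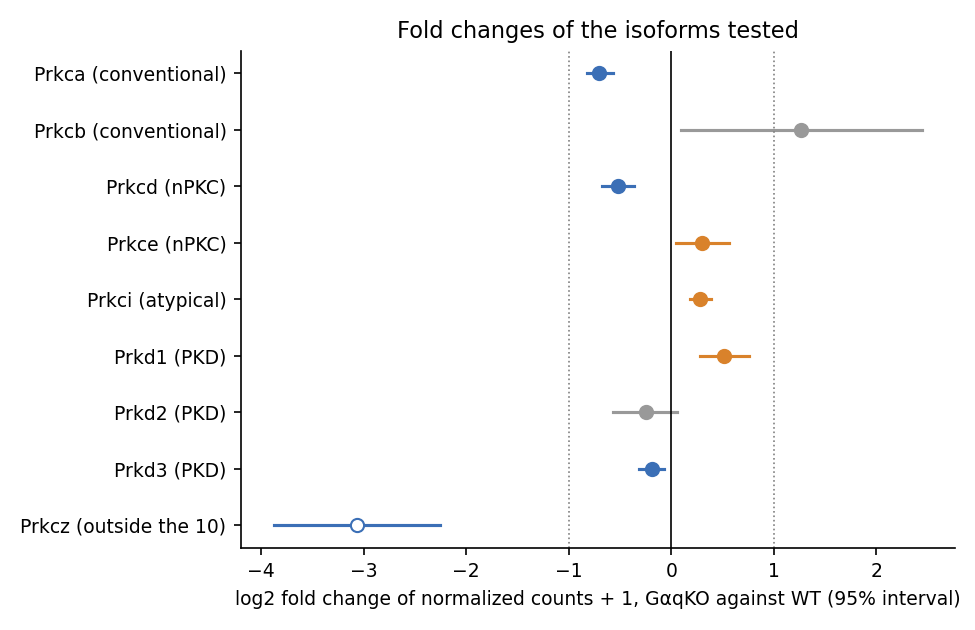
Log2 fold changes of normalized counts plus 1, libraries labelled GαqKO against WT, with 95% intervals from limma, for the 8 isoforms tested (filled) and for Prkcz (open). Orange marks higher and blue lower values at an adjusted p under 0.05, grey marks the rest, and dotted lines stand at 1 and -1. The members called lay between -0.70 and 0.52, and Prkcz lay at -3.07.

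Prkca (ENSMUSG00000050965.15, chromosome 11 of GRCm39, 107824212 to 108235099, minus strand) encodes PKCα, the conventional isoform common to most tissues. It had 1560.0, 1725.2 and 1824.0 normalized counts in the WT libraries and 1033.9, 1092.6 and 1022.1 in those labelled GαqKO. Each of the latter was below each WT library. Prkca had a log2FC of -0.70 (SE 0.06, adjusted p = 2.01e-07 from limma), a 1.62-fold lower level and the largest called change in size among the 10 isoforms.
The other conventional isoform of the list, Prkcb (ENSMUSG00000052889.12, chromosome 7, 121887974 to 122233625, plus strand), encodes PKCβ, best known from B cells. It had 11.5, 1.9 and 3.1 normalized counts in WT and 9.4, 17.3 and 10.1 in the libraries labelled GαqKO, and the groups overlapped. Its log2FC of 1.27 had a 95% interval from 0.10 to 2.45 and did not pass (adjusted p = 0.0528 from limma). Without WT replicate 1, its highest WT library, the value was 1.89 (adjusted p = 0.00516 from limma), so that this call rests on a single library. In that fit Prkcb passed the filter through libraries labelled GαqKO alone, so a higher value there was built in. Among the leukocyte markers, Cd8a was listed at 0 in each library, Ptprc was at 1.7 ± 1.6 and 1.3 ± 0.5 normalized counts (mean ± SD of 3 libraries), and the 8 markers summed to between 20.4 and 38.2 in each library.

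Of the nPKC class, Prkcd (ENSMUSG00000021948.18, chromosome 14, 30317307 to 30349238, minus strand) encodes PKCδ, known for its roles in cell death and growth arrest. Its values were 654.7, 618.8 and 651.4 normalized counts in WT and 406.6, 475.2 and 462.2 in the libraries labelled GαqKO, with no overlap. Prkcd had a log2FC of -0.52 (SE 0.072, adjusted p = 2.4e-05 from limma).
Prkce (ENSMUSG00000045038.15, chromosome 17, 86474992 to 86965429, plus strand) encodes PKCε, which is linked to the cytoskeleton and to growth. It had 178.6, 188.5 and 227.0 normalized counts in WT and 265.7, 254.4 and 213.5 in the libraries labelled GαqKO. WT replicate 3 lay above GαqKO replicate 3, so the groups overlapped. Prkce had a log2FC of 0.30 (SE 0.12, adjusted p = 0.0377 from limma), and the call was lost when WT replicate 1 or 2 or GαqKO replicate 1 or 2 was left out, with log2FC values of 0.23, 0.27, 0.24 and 0.27. The adjusted p was 0.0649 in DESeq2 on the 5 libraries with recovered reads and 0.0857 in limma without a trend in the prior spread. PKCδ and PKCε thus had transcripts whose fitted changes differed in sign.
Prkch (ENSMUSG00000021108.19, chromosome 12, 73631009 to 73824959, plus strand), the gene of PKCη, had 9.4, 6.8 and 9.2 normalized counts in WT and 3.8, 3.5 and 3.0 in the libraries labelled GαqKO. The groups did not overlap, but it passed the filter in no library and was not tested. With no filter its log2FC was -1.09 (adjusted p = 0.136 from limma). PKCη is known from epithelial and endothelial cells, and 4 endothelial markers summed to between 12.6 and 25.5 normalized counts in each library. The sum of the 4 epithelial markers, carried by Cdh1 (238.2 ± 3.1 and 8.0 ± 2.7 normalized counts, mean ± SD of 3 libraries), ran from 255.5 to 283.6 in WT and from 9.0 to 20.9 in the libraries labelled GαqKO. Krt8 (17.3 ± 11.7 and 0.7 ± 0.6) and Krt18 (14.5 ± 4.9 and 1.0 ± 0.9) were lower in the latter too, with no overlap. Epcam was at 3.1 ± 2.1 and 4.6 ± 3.0 and overlapped. The part of this epithelial difference in the values of Prkch was not tested.
Prkcq (ENSMUSG00000026778.14, chromosome 2, 11176911 to 11306043, plus strand), the gene of PKCθ of T cells and skeletal muscle, was listed at 0 in 2 libraries of each group and at 3.1 and 4.0 normalized counts in WT replicate 3 and GαqKO replicate 3. It could not be told from 0 in either group at this depth. The 3 muscle markers summed to between 10.2 and 18.5 normalized counts in each library, nearly all from Des, and Myod1 and Myog were at 0.9 or less. Of the exon bases of Prkcq 92.4% lie inside the spans of other genes and 5.2% in their exons. With so few counts its values are uncertain.

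Prkci (ENSMUSG00000037643.15, chromosome 3, 31049886 to 31107108, plus strand) encodes PKCι, which works with the Par proteins at cell junctions and at the leading edge. It had 1474.4, 1450.3 and 1450.4 normalized counts in WT and 1857.4, 1680.0 and 1791.5 in the libraries labelled GαqKO, each of the latter above each WT library. Prkci had a log2FC of 0.28 (SE 0.049, adjusted p = 0.000174 from limma). Beside it, the median log2FC of the 734 genes tested on chromosome 3 was 0.325, so Prkci lay near the middle of its chromosome. For the other 5 isoforms called, the medians of their chromosomes lay between -0.114 (chromosome 11, Prkca) and 0.075 (chromosome 14, Prkcd). The part of such chromosome shifts in these results was not tested.

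Prkcz, the gene of the atypical isoform PKCζ, is not among the 10. It had 41.8, 37.9 and 33.6 normalized counts in WT and 1.9, 4.6 and 5.0 in the libraries labelled GαqKO. Its log2FC was -3.07 (95% interval -3.88 to -2.26, adjusted p = 7.2e-06 from limma). It passed the filter through the WT libraries alone and so had to differ, and the epithelial and neural marker sums given above were lower in the same libraries, whose part was not tested. The median log2FC of the 860 genes tested on its chromosome, chromosome 4, was -0.355, and the part of this shift was not tested either. Prkcz reached 5.8 ± 0.6 normalized counts per kilobase in WT (SD, n = 3), beside 244.2 for Prkci.

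Of the PKD genes, Prkd1 (ENSMUSG00000002688.9, chromosome 12, 50387996 to 50696227, minus strand) encodes PKD1, which acts in secretion from the Golgi and in the control of class IIa histone deacetylases. It had 216.1, 169.0 and 206.6 normalized counts in WT and 288.3, 300.6 and 256.8 in the libraries labelled GαqKO, with no overlap. Prkd1 had a log2FC of 0.52 (SE 0.112, adjusted p = 0.00108 from limma), the largest called rise among the 10 isoforms.
Prkd2 (ENSMUSG00000041187.17, chromosome 7, 16576822 to 16604389, plus strand), the gene of PKD2, had 221.4, 210.8 and 204.6 normalized counts in WT and 152.1, 233.6 and 158.1 in the libraries labelled GαqKO. GαqKO replicate 2 lay above all WT libraries and the other two below them. Prkd2 had a log2FC of -0.25 (95% interval -0.57 to 0.06, adjusted p = 0.142 from limma), and without GαqKO replicate 2 it was -0.45 (adjusted p = 0.00451 from limma).
Prkd3 (ENSMUSG00000024070.16, chromosome 17, 79256834 to 79328304, minus strand), the gene of PKD3, was the most abundant PKD gene in each library. It had 1680.1, 1816.6 and 1918.6 normalized counts in WT and 1644.2, 1557.5 and 1533.7 in the libraries labelled GαqKO, with no overlap but a gap that was smaller than the spread within WT. Prkd3 had a log2FC of -0.19 (SE 0.055, adjusted p = 0.00726 from limma), with adjusted p = 0.0791 in DESeq2 on 5 libraries and 0.0551 in limma without a trend in the prior spread.

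The stretches before the start sites of 4 genes are shown, the most abundant isoforms Prkca, Prkci and Prkd3 and the isoform with the largest called rise, Prkd1, of which Prkca and Prkd3 were lower and Prkci and Prkd1 higher. They were read from GRCm39 as the 250 bases before the start of the canonical GENCODE transcript, 5′ to 3′ on the strand of the gene, without bases that lie in annotated exons of the gene. They are chr11:108235100-108235310 (minus strand, Prkca, 211 bases), chr3:31049636-31049885 (plus strand, Prkci), chr17:79328305-79328554 (minus strand, Prkd3) and chr12:50696228-50696477 (minus strand, Prkd1). Capitals mark the only motif match in them, a GC box on the opposite strand before Prkci (CCGCCC), and the motifs searched are given after the sequences.
Prkca: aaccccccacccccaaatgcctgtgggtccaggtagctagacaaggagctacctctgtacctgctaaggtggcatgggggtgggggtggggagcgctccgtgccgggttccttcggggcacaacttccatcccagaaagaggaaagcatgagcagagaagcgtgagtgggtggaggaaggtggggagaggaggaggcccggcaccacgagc
Prkci: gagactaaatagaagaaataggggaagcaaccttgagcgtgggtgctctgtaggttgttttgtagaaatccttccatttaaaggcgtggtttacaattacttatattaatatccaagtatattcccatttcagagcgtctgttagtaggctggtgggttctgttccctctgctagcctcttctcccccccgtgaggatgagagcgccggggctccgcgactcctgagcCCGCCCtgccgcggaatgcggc
Prkd3: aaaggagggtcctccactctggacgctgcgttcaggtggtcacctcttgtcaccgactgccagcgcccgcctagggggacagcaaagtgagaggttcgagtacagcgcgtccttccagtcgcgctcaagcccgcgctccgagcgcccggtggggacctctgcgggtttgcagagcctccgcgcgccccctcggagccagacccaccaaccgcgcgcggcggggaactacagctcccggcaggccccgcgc
Prkd1: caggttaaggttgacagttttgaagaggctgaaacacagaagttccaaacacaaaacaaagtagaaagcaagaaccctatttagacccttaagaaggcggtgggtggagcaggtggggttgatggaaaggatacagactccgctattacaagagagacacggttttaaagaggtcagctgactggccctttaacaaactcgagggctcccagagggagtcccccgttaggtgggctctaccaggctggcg
Motifs were searched on both strands of the whole 250 bases for all 10 isoforms. They were the GC box (GGGCGG), the CCAAT box (CCAAT), the AP-1 site that phorbol esters act through (TGANTCA), the cyclic AMP response element CRE (TGACGTCA), the E-box (CACGTG) and the TATA box (TATAAA). A GC box was present before 4 of the 10 isoforms, against 36.3% of 21770 protein-coding genes. It occurred at 4 positions before Prkcd, at 2 before Prkd2 and at 1 each before Prkci and Prkcb, so both a lower and a higher isoform carried it. The CCAAT box was found only before Prkch (36.5% of all genes), and the E-box (6.3%) and TATA box (11.9%) only before Prkcd, where the E-box overlapped a GC box. AP-1 sites and CRE were found before 0 of the 10, against 6.2% and 1.7% of all genes. Prkd3 had the highest content of G and C among the isoforms called, at 70.0%, and Prkd1 the lowest, with a median of 53.2% over all genes. Before Prkcd 203 and before Prkcb all 250 bases lie in annotated exons of the same gene, so these were not printed.

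The classes were then compared as shares of the summed normalized counts per kilobase of the 10 isoforms. The conventional class, nearly all Prkca, held 20.90%, 22.72% and 22.94% in the WT libraries and 13.80%, 14.87% and 14.24% in those labelled GαqKO, a difference of -7.88 percentage points. The atypical class, which is Prkci alone, held 34.41%, 33.47% and 31.95% against 43.13%, 39.53% and 43.38%, a difference of 8.74 points. In both classes the groups did not overlap. The nPKC class held 11.23% ± 0.31 and 9.99% ± 0.40 (mean ± SD of 3 libraries), also with no overlap, and PKD held 33.31% ± 0.36 and 33.69% ± 1.35. The exact permutation p (two-sided) was 0.1 for the conventional, nPKC and atypical classes and 0.8 for PKD, and 0.133, 0.133, 0.133 and 0.8 after Benjamini-Hochberg adjustment over the 4 classes. With 3 libraries against 3 the smallest p that this test allows is 0.1, so no class could pass. Shares sum to a whole, so that a fall in a class raises the others. The summed level of the 10 isoforms was 734.5 ± 22.8 normalized counts per kilobase in WT and 708.2 ± 15.1 in the libraries labelled GαqKO (SD, n = 3 each, exact permutation p = 0.2, two-sided). Within PKD, the level per kilobase of Prkd1 came to 45.8 in WT and 65.5 in the other group and that of Prkd3 to 161.8 and 141.5, so the share of the class hid opposite changes of its members.

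**Figure D3:**
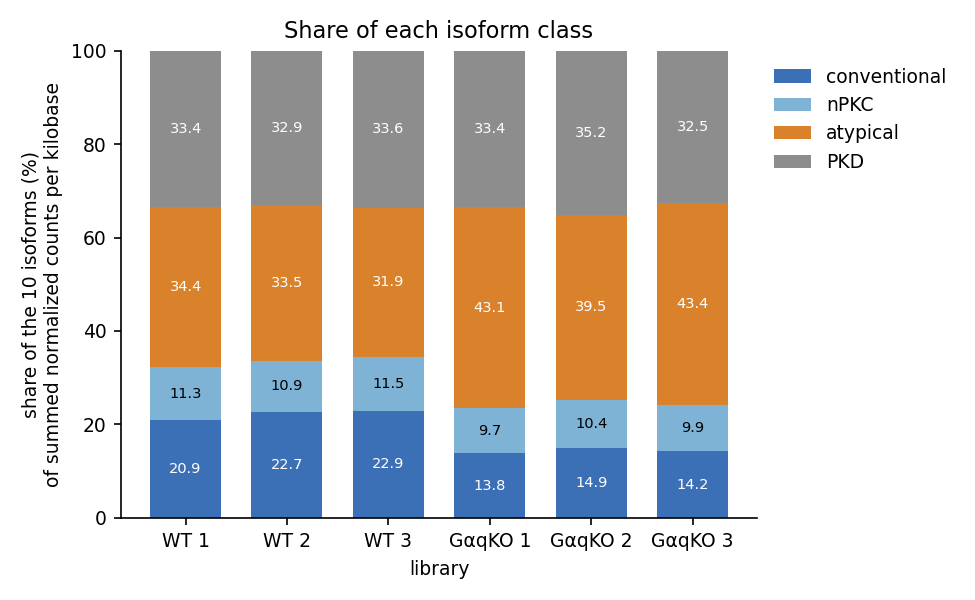
Share (%) of each isoform class in the summed normalized counts per kilobase of the 10 isoforms, as stacked bars, 1 bar per library. The conventional share was between 20.90% and 22.94% in WT and between 13.80% and 14.87% in the libraries labelled GαqKO, and the atypical share between 31.95% and 34.41% and between 39.53% and 43.38%.

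The genes around the kinases were read from 9 lists with 88 genes, Prkcz among them, of which 77 were tested. At an adjusted p under 0.05 (limma) 22 of these rose and 33 fell, where 31.8% of all genes tested were called higher and 34.1% lower, the background for each list below, and beyond a log2FC of 1 or -1 there were 7 that rose and 10 that fell (10.2% and 10.5% of all genes tested). The median log2FC was -0.12 over the 77 genes.

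Diacylglycerol kinases end the PKC signal by turning diacylglycerol into phosphatidic acid. Of the 10, 8 were tested, 5 were lower (34.1% of all genes tested) and 1 higher (31.8%), and their median log2FC was -0.38. Dgka went from 115.1 ± 17.7 to 25.7 ± 6.8 normalized counts (mean ± SD of 3 libraries), a log2FC of -2.14 (adjusted p = 1.98e-06 from limma). Dgkz (-0.59), Dgkh (-0.70), Dgkq (-0.54) and Dgke (-0.22) were lower as well, and the most abundant, Dgkd, did not pass at -0.11. Of the exon bases of Dgkq, Dgke and Dgkd 99.1%, 84.1% and 72.5% lie inside the spans of other genes, and 36.9%, 18.1% and 24.6% in their exons. The kinase that was higher was Dgki, from 13.8 ± 4.3 to 36.7 ± 3.9 normalized counts (mean ± SD of 3 libraries), which was named after its values were seen. Among 12 other enzymes that make or use diacylglycerol, 11 were tested, with 4 higher and 5 lower and a median of -0.19. The lipid phosphate phosphatases, which can make diacylglycerol, did not move as 1 group. Plpp3 rose from 52.5 ± 5.8 to 321.3 ± 12.5 normalized counts and Plpp1 from 244.2 ± 19.5 to 585.2 ± 33.2, whereas Plpp2 fell from 1052.3 ± 30.1 to 433.9 ± 24.5 (mean ± SD of 3 libraries). Lpin1, a phosphatidate phosphatase, rose by 1.52 on the log2 scale (adjusted p = 1.09e-05 from limma). The fourth rise was that of Sgms2, a sphingomyelin synthase that releases diacylglycerol, at 1.14, also named after its values were seen. Their relatives went the other way, Lpin2 at -0.35 (adjusted p = 0.000605 from limma) and Sgms1 at -0.32 (adjusted p = 0.00045 from limma). Lpin2 was more abundant than Lpin1 in both groups. The other falls were those of Dagla (-0.66) and Daglb (-0.70), and these genes too were named after their values were seen.

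Diacylglycerol receptors other than PKC and PKD were mostly scarce, and 5 of the 10 were tested, with 1 higher, 1 lower and a median of -0.04. Unc13c, a vesicle priming protein of neurons, had 40.7, 54.4 and 42.7 normalized counts in WT and 242.3, 240.5 and 252.8 in the libraries labelled GαqKO. Chn2, a chimaerin that restrains Rac, went from 126.4 ± 12.5 to 56.7 ± 4.0 (mean ± SD of 3 libraries). Of the exon bases of Chn2 62.8% lie inside the spans of other genes and 10.3% in their exons. The most abundant of these receptors, Unc13a, had a log2FC of -0.23 (adjusted p = 0.0562 from limma). Of the 3 PKC-related kinases 2 were higher, among them the most abundant, Pkn2, at 0.18.

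Among PKC substrates, scaffolds and anchors 14 of 17 were tested, with 4 higher and 5 lower and a median of -0.13. Akap5 and Akap12, A-kinase anchoring proteins that also bind PKC, were lower. Akap5 had 575.3, 660.6 and 528.3 normalized counts in WT and 8.5, 25.4 and 31.2 in the libraries labelled GαqKO, a log2FC of -4.87 (SE 0.333, adjusted p = 1.81e-08 from limma). Akap12 went from 952.7 ± 16.8 to 152.0 ± 3.5 normalized counts (mean ± SD of 3 libraries), a log2FC of -2.64 (adjusted p = 1.37e-12 from limma). Marcksl1, a substrate that binds actin and calmodulin, had a log2FC of -1.78, and its relative Marcks had 0.26. Cavin3, a caveolar protein known as a binder of PKCδ, rose from 168.1 ± 29.6 to 570.5 ± 18.8 normalized counts (mean ± SD of 3 libraries). Of its exon bases 51.8% lie inside the spans of other genes and 15.0% in their exons. Fscn1, the actin bundler with the highest level, had -0.11 and did not pass.

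All 12 genes of the maturation of PKC were tested, with 3 higher, 4 lower, a median of -0.10 and 0 past a log2FC of 1. The highest in level was the chaperone gene Hsp90ab1, at 45468.5 ± 441.6 and 51351.1 ± 1658.9 normalized counts (mean ± SD of 3 libraries), a log2FC of 0.18. All 11 partners of atypical PKC were tested, with 4 higher, 6 lower and a median of -0.19. Of the Par6 genes, whose products bind atypical PKC and Cdc42, Pard6b went from 1106.2 ± 12.4 to 172.3 ± 2.9 normalized counts (mean ± SD of 3 libraries), a log2FC of -2.68 (adjusted p = 7.2e-13 from limma). Pard6g was lower at -0.43 (91.3% of its exon bases lie inside the spans of other genes, 0.0% in their exons) and Pard6a higher at 0.79. Wwc1, the gene of the scaffold KIBRA, had -1.58, and Cdc42, the most abundant partner, had -0.60. Of 11 PKD substrates and partners, 3 were higher and 6 lower, with a median of -0.36. Hdac5, a histone deacetylase that PKD drives out of the nucleus, went from 753.3 ± 50.8 to 252.5 ± 13.6 normalized counts (mean ± SD of 3 libraries), a log2FC of -1.57 (adjusted p = 5.07e-10 from limma), and the most abundant, Rin1, had 0.14. For Hsp90ab1, Pard6b and Hdac5, 66.5%, 36.8% and 43.4% of the exon bases lie inside the spans of other genes. The parts in exons of other genes are 34.9%, 30.3% and 31.2%.

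**Figure D4:**
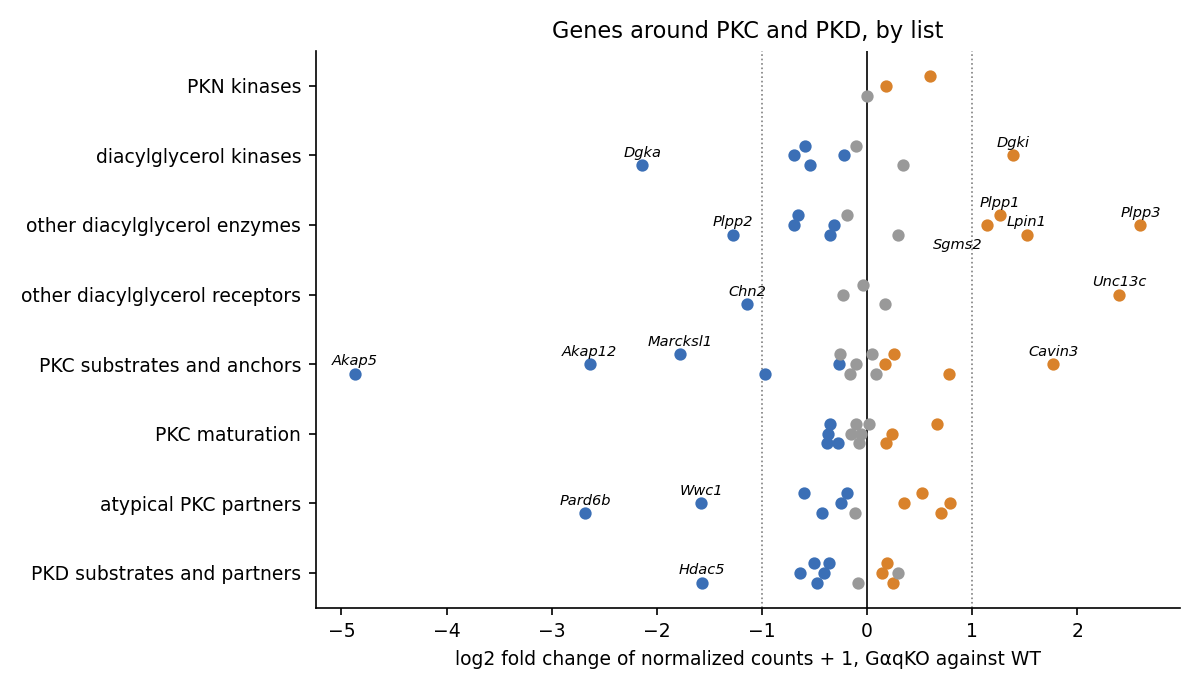
Log2 fold changes of normalized counts plus 1, libraries labelled GαqKO against WT, for the genes tested in 8 lists around PKC and PKD, 1 point per gene, spread slightly in height for legibility. Orange marks higher and blue lower values at an adjusted p under 0.05 (limma), grey the rest, dotted lines stand at 1 and -1, and called genes beyond them are named, from Akap5 at -4.87 to Plpp3 at 2.60.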

How the data were processed

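RNA of 3 WT and 3 GαqKO samples was poly-A selected, made into libraries with a stranded kit and sequenced as paired ends. Alignment by the authors used Rbowtie2 and GRCm39, and gene counts came from featureCounts with GENCODE release 32 and were scaled with DESeq2. Versions and the strand setting of the counting are not given in the sources used here. The deposited values are a signal, gene counts divided by 1 size factor per library. Identifiers were matched without version to GENCODE release 39 of the same build (56310 of 56953, 98.9%).

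As the values are not raw counts, limma 3.58.1 (trend, R 4.3.3) was run on log2(normalized count + 1), with Benjamini-Hochberg adjustment over all 14096 genes tested. Reads were recovered as whole multiples of 1 step in 5 libraries (9853000 to 12229175 reads, 100.0% of nonzero values within 0.01), and edgeR 4.0.16 and DESeq2 1.42.0 were run on those. GαqKO replicate 3 was not accepted by a check of the unit. In a fit without a library, the filter asked for as many libraries as the smaller group held. Replicate pairs differed by 2.44 to 5.50 times counting noise (chi-square per gene). Where such a spread is technical, p-values measure no more than that. On simulated data with 200 changed genes limma recovered 198 of them among 13986 tested, with 5 false calls. There edgeR recovered 197 among 14155 and DESeq2 187 among 24681. Each changed gene had a log2 fold change of at least 1 in size. Recovery of smaller changes, such as those of all isoforms called here, was not tested.

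Genes named are all 10 isoforms, Prkcz, Gnaq, Gna11 and, per list, up to 4 called genes with a log2 fold change past 1 in size and a mean of at least 50 normalized counts, and the gene with the highest mean. Further list genes were chosen after their values were seen, and some genes that this rule names are not reported here. Isoforms, lists and tests were chosen with earlier results of these data known. Python 3.11.15 was used for tables and figures.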

Additional observations from a re-analysis of the deposited data

How the results depend on the processing

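The direction and call of Prkca, Prkcd, Prkci and Prkd1 held under TMM scaling, other filters and pseudocounts, limma without a trend, the replicate block, edgeR, DESeq2 and each library left out. The calls of Prkce, Prkd3, Prkd2 and Prkcb changed as given above, and with a pseudocount of 5 the adjusted p of Prkcb was 0.0489 (limma). With each library left out, 2 to 3 isoforms were higher and 3 to 4 lower, and 0 to 1 higher past a log2 fold change of 1. The 1 was Prkcb without WT replicate 1, which had passed the filter through libraries labelled GαqKO alone. The share of PKD changed by -0.36 percentage points without GαqKO replicate 2 and by up to 0.98 without another library. Requiring 10 normalized counts in every library left 831 genes higher and 765 lower past a log2 fold change of 1, by construction. Among single lists, counts moved by over 1.5 times in 19 cases, as for the diacylglycerol receptors that rose (2 in place of 1 without GαqKO replicate 1 or any WT replicate) and the PKD substrates that rose (1 in place of 3 without GαqKO replicate 1). With the replicate number as a block 2 isoforms were higher and 3 lower, and Prkce had an adjusted p of 0.0678 (limma). Same-numbered libraries did not deviate together (correlations -0.08, -0.02 and -0.06). These values gave no sign of pairing by number, but cannot decide whether such libraries were prepared together. Shares on the coding length of RefSeq proteins were not run. On merged coding length, chosen after seeing the data, the conventional share differed by -8.75 points. Genes at a few reads are limited by depth, and floors and intervals of counts cover counting error only.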

Other observations

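A processed pseudogene of Prkcz, Prkcz2 on chromosome 7, was listed at 31.3, 25.3 and 31.6 normalized counts in the WT libraries and 12.2, 10.4 and 24.2 in those labelled GαqKO, with no overlap. All of its exon bases lie in exons of Zfp974, so its values are uncertain. Reads of such a copy and of its parent gene can be split between them by the counting, and whether this touched Prkcz was not tested.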
